A study of Homo sapiens with 12 samples.

Results

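The protein folding machinery of the endoplasmic reticulum (ER) and the unfolded protein response (UPR) that adjusts it were examined as 34 genes, chosen by symbol and found in the gene table by Ensembl identifier. 33 of the 34 were in the table of 20595 genes, and the expression of HSPA5 was not analysed here. The samples were 12 bulk RNA-seq libraries of A549 and H1792, human lung adenocarcinoma (LUAD) cell lines described as MDM2 amplified, with wild-type p53 in A549 and mutant p53 in H1792. Cells of each line were given DMSO, the vehicle, or 1 μM RG7112, and were kept so for 48 h. There were 4 groups of 3 replicates. RG7112 is a small molecule of the nutlin family that keeps MDM2 from binding p53. There was 1 cell line of each p53 status, so the line and the p53 status cannot be told apart, and nothing in the labels says that the replicates were separate cultures, so p-values measure only the spread between these samples.

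Secreted and membrane proteins are translocated into the ER through the Sec61 channel, folded by chaperones and disulphide enzymes, and exported in COPII vesicles. Proteins that fail to fold are recognised, drawn back through the membrane and ubiquitinated, a route called ER-associated degradation (ERAD). When unfolded proteins accumulate, the membrane sensors IRE1 (encoded by ERN1), PERK (encoded by EIF2AK3) and ATF6 start the UPR. IRE1 splices the messenger RNA of the transcription factor XBP1, ATF6 is cleaved into one, and both raise the transcription of chaperone and ERAD genes. The 34 genes were grouped as 12 chaperones and their partners, 6 disulphide enzymes, 7 ERAD genes, 5 sensors and regulators and 4 genes of translocation and export. The first 2 of these groups are called folding genes here.

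Total estimated counts ranged from 2011916 to 6218825 per library, so 3 counts corresponded to 0.465 to 1.43 CPM (counts scaled to a common library size, with TMM factors), counting error only. The summed level of 6 epithelial markers, nearly all of it from keratins, was between 14480 and 24060 CPM in A549. It was between 1818 and 2185 CPM in H1792 with DMSO and between 1069 and 1337 CPM in H1792 with RG7112. KRT7, KRT8, KRT18 and KRT19 were each called lower in H1792 under RG7112 (-0.54 to -1.04 on the log2 scale), and KRT19 was called higher in A549 (1.27). EPCAM, a defining epithelial marker, stayed at or below 6.23 CPM in every library. CDH1, also among the 6, was between 1.74 and 21.9 CPM in A549 and at or below 1.06 CPM in H1792. The epithelial label of H1792 therefore rested on the keratins alone. The 3 leukocyte and 3 endothelial markers summed to at most 1.91 CPM in any library, while the 4 fibroblast markers summed to 903 to 1135 CPM in H1792 and at most 1.63 CPM in A549. Nearly all of that sum was COL1A2, and LUM and DCN were at or near 0. Another of the 4, PDGFRB, was called higher in H1792 under RG7112 (2.93, adjusted p = 0.0220, edgeR), from at most 0.923 CPM to between 3.56 and 6.29 CPM. The part of these markers in the results that follow was not tested. The p53 targets CDKN1A and MDM2 rose in A549 under RG7112, by 3.58 and 2.99 on the log2 scale (adjusted p = 0.0252 and 0.0102, edgeR), and stood at 0.15 and -0.05 in H1792 (adjusted p = 0.882 and 0.928). In bulk samples, fewer cells of a type and less RNA per cell cannot be told apart.

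The UPR factors bind short elements upstream of their target genes, and 3 such elements were searched by their textbook consensus on both strands of the promoter windows of RefSeq (GRCh38.p14). These were the ER stress response element (ERSE), its shorter form ERSE-II and the UPR element (UPRE). In HYOU1 a match to UPRE overlaps one to ERSE-II. A window ran from 250 bases before a transcript start to 50 bases after it, and 31 of the 34 genes had 1 or more windows, 38 in all. ERSE was found in 10 of the 38 windows (26.3%), against 27 of all 35116 windows (0.0769%). ERSE-II was found in 3 windows (7.89%) against 0.0541% of all windows, and UPRE in 2 (5.26%) against 0.729%. At least 1 of the 3 elements was in 14 windows (36.8%), which belonged to 12 genes with HSPA5 among them, against 0.857% of all windows. Several of these windows overlap, and the ERSE of CANX was counted in 3 of them. The genes were chosen as genes of the UPR and the elements are those of UPR targets. List and elements are therefore not independent, and the shares are a description. Among the chaperones 9 of 15 windows held an element, and among the ERAD genes 1 of 6, that of HERPUD1.

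The level of 5 genes with an element changed in H1792 under RG7112, and the promoters of 4 of them are given on the strand of the gene with the elements in capitals. Each stretch ends before the first base that GENCODE v29 places in an exon of the gene. The ERSE of CANX lies inside an annotated alternative first exon, and its sequence is not shown. HYOU1 was taken from chr11:119057206-119057405 (minus strand), PDIA6 from chr2:10812845-10812985 (minus), HERPUD1 from chr16:56931942-56932047 (plus) and XBP1 from chr22:28800598-28800679 (minus). PDIA6 and XBP1 each hold 1 ERSE, HERPUD1 holds 1 ERSE-II, and HYOU1 holds 2 reversed ERSE-II elements, the first of which overlaps a UPRE.
HYOU1: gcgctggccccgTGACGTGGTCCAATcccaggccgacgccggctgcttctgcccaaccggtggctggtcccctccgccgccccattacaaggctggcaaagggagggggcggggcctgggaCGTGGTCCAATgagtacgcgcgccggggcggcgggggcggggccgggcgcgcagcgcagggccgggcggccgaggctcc
PDIA6: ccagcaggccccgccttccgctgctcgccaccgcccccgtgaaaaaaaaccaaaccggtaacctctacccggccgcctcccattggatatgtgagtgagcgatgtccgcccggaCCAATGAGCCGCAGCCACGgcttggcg
HERPUD1: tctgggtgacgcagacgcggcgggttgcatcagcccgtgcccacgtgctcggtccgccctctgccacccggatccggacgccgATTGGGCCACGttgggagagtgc
XBP1: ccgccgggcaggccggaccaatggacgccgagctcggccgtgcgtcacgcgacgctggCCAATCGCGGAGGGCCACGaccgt
These genes went both ways in H1792. Of the 9 genes with an element that could be tested there, CANX, HERPUD1 and XBP1 were higher under RG7112, HYOU1 and PDIA6 were lower and 4 were not called. Of the 11 tested genes with a window but no element, 4 were higher, 3 were lower and 4 were not called. Of all tested genes 34.1% were called in H1792, 17.7% higher and 16.5% lower. A match is a description of the window and not a measured binding site.

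A part of the list did not pass the count filter of edgeR. With it, 24 members were tested in A549, 23 in H1792 and 25 over all 12 samples, where 75.8% of the members in the table passed the count filter against 56.6% of all genes. The 8 members that passed it nowhere were HSP90B1, DNAJB11, DNAJC3, SDF2L1, P4HB, ERN1, ATF6 and SEC61B, whose highest value in any library was 2.31 CPM, from at most 14 counts. HSP90B1, the ER form of the HSP90 chaperone, was listed at 0 in 4 libraries, at 2.31 CPM in H1792 RG7112 replicate 2 and at 0.498 CPM or less in the others. ATF6 was listed at 0 in all 12 libraries. ERN1 was listed between 0 and 0.937 CPM in A549 and between 0 and 1.55 CPM in H1792. Because HSP90B1, P4HB and SEC61B are abundant in most cell types and were also at or near 0, these values say only how the genes are listed. DNAJB11 was called lower in A549 than in H1792 at baseline by DESeq2 and by edgeR with no count filter. EDEM1, which directs misfolded glycoproteins to ERAD, passed the count filter only over all 12 samples. Its levels were 1.87, 9.22 and 0 CPM in A549 with DMSO and 1.55, 6.197 and 0 CPM with RG7112. In H1792 they were 0, 0 and 0.436 CPM with DMSO and 1.55, 7.12 and 11.4 CPM with RG7112, and the counts of its DMSO libraries, 0, 0 and 1, are too few for a fold to be given. It was called higher in H1792 by DESeq2, by edgeR with no count filter and without DMSO replicate 1 or 3 or RG7112 replicate 1. In these fits with a library left out it passed the count filter only through RG7112 replicates 2 and 3 (40 and 49 counts). Those calls could therefore hardly be other than higher.

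The starting levels of the 2 lines were compared in the DMSO groups. 12 of the 25 tested members differed at an adjusted p under 0.05 (48.0%), a share near the 47.5% of all genes tested. 8 members were lower in A549 than in H1792, against 22.0% of all genes, and 4 were higher, against 25.6%. CALR and PDIA4 were listed at 5.74 and 2.64 CPM in A549 and at 5.28 and 1.02 CPM in H1792. With these and with HSP90B1, P4HB and SEC61B near 0, an order between genes describes only the listed values. In CPM per kilobase of principal transcript, PDIA3 was listed highest in A549 at 132.9 ± 20.7 (SD, n = 3). It was followed by OS9 at 111.9, MANF at 88.2, CANX at 72.4 and XBP1 at 64.5. In H1792 the order was OS9 at 344.1 ± 30.9 (SD, n = 3), PDIA3 at 335.3, XBP1 at 206.9, MANF at 170.8 and PDIA6 at 110.1. The values of PDIA3 and OS9 overlapped between samples in each line, so that neither order of this pair held beyond its spread.

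XBP1 showed a clear gap between the lines. It was at 114, 123 and 121 CPM in the A549 DMSO samples and at 395, 373 and 381 CPM in those of H1792. The log2 difference was -1.68 ± 0.09 (SE; adjusted p = 1.37e-07, edgeR quasi-likelihood test). The counts do not tell spliced from unspliced XBP1 messenger RNA. OS9, the lectin that hands misfolded glycoproteins to the HRD1 ubiquitin ligase, was at 284, 325 and 295 CPM in A549 and at 857, 1018 and 902 CPM in H1792, a log2 difference of -1.62 ± 0.10 (adjusted p = 3.84e-07). HERPUD1, a small ER membrane protein of the same ligase complex, was at 124, 119 and 116 CPM in A549 and 294, 249 and 245 CPM in H1792, a log2 difference of -1.13 ± 0.11 (adjusted p = 1.28e-05). PDIA3, the disulphide isomerase that works with calnexin and calreticulin, differed by -1.33 ± 0.12 (adjusted p = 4.98e-06), and SERP1, which stabilises membrane proteins at the Sec61 channel, by -1.33 ± 0.13 (adjusted p = 1.40e-05). None of these groups overlapped between the lines, as was so for 12 of the 25 members and for 58.3% of all genes tested.

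HYOU1, a large chaperone that also exchanges nucleotide on the HSP70 of the ER, had the most negative difference at -3.14 ± 0.58 (adjusted p = 0.00108). It was at 10.9, 9.56 and 26.7 CPM in A549 and at 129, 149 and 137 CPM in H1792. MANF, a resident factor secreted under ER stress, and PDIA6 were also lower in A549, by -0.95 ± 0.26 (adjusted p = 0.0104) and -1.72 ± 0.57 (adjusted p = 0.0276). The difference of PDIA6 was not called when A549 DMSO replicate 1 or 2 or H1792 DMSO replicate 2 or 3 was left out (-1.38, -1.39, -1.43 and -1.71), and it was -2.74 without A549 DMSO replicate 3. The higher members in A549 were DNAJB9 at 1.85 ± 0.42 (adjusted p = 0.00369), ERO1A at 0.98 ± 0.30 (adjusted p = 0.0188), DERL1 at 0.41 ± 0.14 (adjusted p = 0.0268) and WFS1 at 0.34 ± 0.12 (adjusted p = 0.0322). Leaving out A549 DMSO replicate 3 raised the number of higher members from 4 to 8, with CANX, PDIA4, SEL1L and EDEM1 added. The number was 2 without A549 DMSO replicate 1 or 2 or H1792 DMSO replicate 3, and 1 without H1792 DMSO replicate 2.

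**Figure D1:**
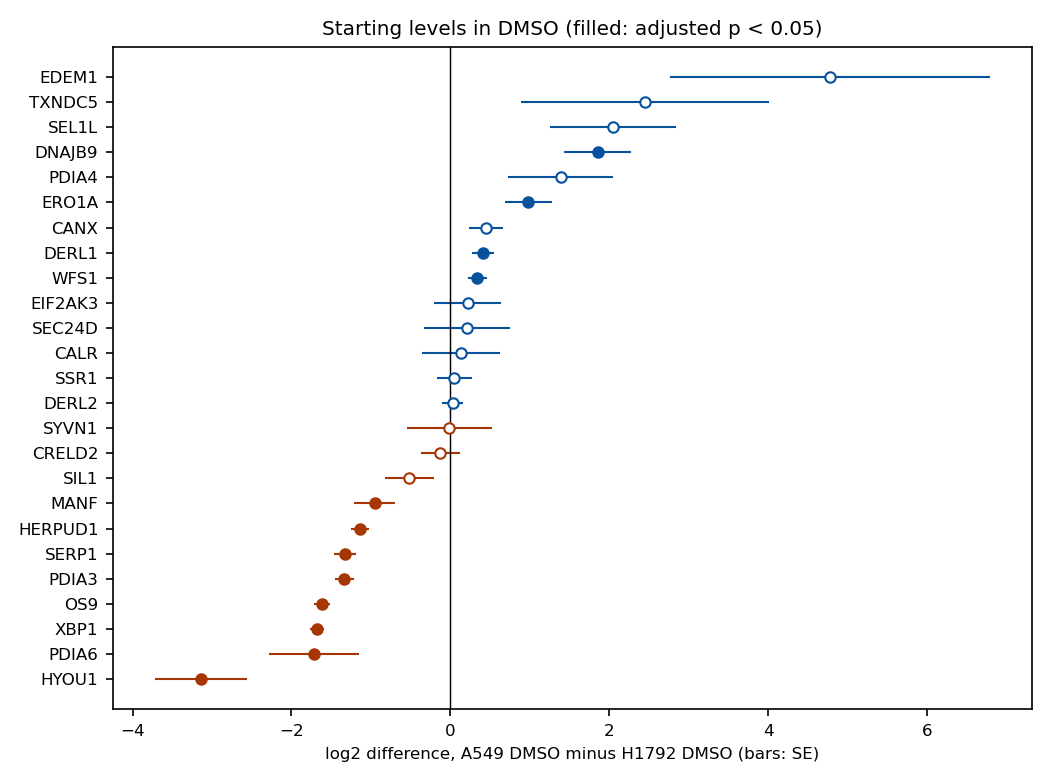
Log2 difference between A549 and H1792 in DMSO for the 25 tested members, with points for the fitted value, bars for its SE and filled points for an adjusted p under 0.05. 8 filled points lie left of 0, from HYOU1 at -3.14 to MANF at -0.95, and 4 lie right of it, led by DNAJB9 at 1.85.

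In H1792, RG7112 changed 13 of the 23 tested members (56.5%), against 34.1% of all genes tested. 8 were higher (17.7% of all genes) and 5 were lower (16.5% of all genes). 7 of the 13 also passed the fold threshold for a differentially expressed gene (DEG), an absolute log2 fold change over 1, against 14.6% of all genes. In 15 of the 23 the treated and control samples did not overlap, against 53.3% of all genes. The DEGs were SEL1L, DNAJB9, ERO1A, SEC24D and CANX upwards and PDIA6 and HYOU1 downwards. SEL1L (5 counts in each DMSO library) and DNAJB9 (6, 9 and 6) passed the count filter only through their RG7112 samples. A call of either could therefore hardly be other than higher, and both are counted among the 8 higher members. The direction rested in part on the scaling. With library size alone in place of TMM the median of all genes moved from 0.01 to 0.27, and 10 members were higher and 3 lower. With a correction for GC content 12 were called, against 25.2% of all genes, 6 of them higher and 6 lower, against 13.6% and 11.6% of all genes.

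Among the chaperones, CANX rose and HYOU1 fell. CANX encodes calnexin, the membrane lectin that holds new glycoproteins until they fold (chr5:179678628-179730925, plus strand, GRCh38). It was at 237, 233 and 208 CPM with DMSO and at 421, 544 and 497 CPM with RG7112, with no overlap. Its log2 fold change was 1.18 ± 0.11 (SE; adjusted p = 0.00276, edgeR) and 0.71 with the GC correction (adjusted p = 0.00453). HYOU1 (chr11:119044189-119057202, minus strand) was at 129, 149 and 137 CPM with DMSO and at 39.8, 31.0 and 31.9 CPM with RG7112. Every treated sample lay under every control sample, and the log2 fold change was -1.94 ± 0.12 (adjusted p = 0.00184), or -1.69 with the GC correction (adjusted p = 0.00215). HYOU1 had the same counts in all 12 samples as a second identifier, so that its level is uncertain while its ratio between samples is not affected.

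DNAJB9, a J-domain partner that brings substrates to the HSP70 of the ER (chr7:108569568-108574850, plus strand), rose from a low level. With DMSO it was at 2.11, 2.08 and 2.62 CPM, from 6, 9 and 6 counts, and with RG7112 at 7.23, 8.90 and 10.9 CPM. Its log2 fold change was 2.07 ± 0.33 (adjusted p = 0.00591). Its locus overlaps PNPLA8 and THAP5 on the other strand, and whether the counting used strand is not given in the sources used here. The same holds for CANX (CBY3), PDIA6 (ATP6V1C2), SIL1 (MATR3), CRELD2 (ALG12), PDIA3 (ELL3), SERP1 (EIF2A and SELENOT), DERL1 (TBC1D31), DERL2 (MIS12) and SYVN1 (MRPL49). Each of these overlaps the gene in parentheses on the other strand. The nucleotide exchange factor SIL1 was at 42.3, 56.1 and 44.9 CPM with DMSO and at 24.3, 29.9 and 30.5 CPM with RG7112, a log2 fold change of -0.68 ± 0.17 (adjusted p = 0.0214). That call was lost with the GC correction (-0.27, adjusted p = 0.309), library size alone (-0.42, adjusted p = 0.109), the replicate block (adjusted p = 0.0525) or one fit of all 12 samples (adjusted p = 0.0989), and without DMSO replicate 2 (-0.58) or 3 (-0.72) or RG7112 replicate 2 (-0.72) or 3 (-0.75). The other 3 tested chaperones were not called by edgeR. Calreticulin (CALR) was at 0.58 ± 0.39 (adjusted p = 0.289), MANF at -0.50 ± 0.17 (adjusted p = 0.0578) and CRELD2 at 0.01 ± 0.14 (adjusted p = 0.969). MANF was called lower by DESeq2 (-0.51, adjusted p = 0.0300) and without RG7112 replicate 1 (-0.66, adjusted p = 0.0249).

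The disulphide enzymes also split. ERO1A, the oxidase that restores the disulphide of protein disulphide isomerase (chr14:52639916-52695900, minus strand), was at 12.7, 7.85 and 10.5 CPM with DMSO and at 25.3, 37.2 and 33.8 CPM with RG7112. Its groups did not overlap and it rose by 1.72 ± 0.27 (adjusted p = 0.00568), or 1.15 with the GC correction (adjusted p = 0.0162). PDIA6, an isomerase of the same family (chr2:10783391-10837977, minus strand), was at 158, 350 and 264 CPM with DMSO and at 47.3, 96.6 and 31.2 CPM with RG7112. It fell by 2.05 ± 0.45 (adjusted p = 0.0162), with a value of -2.30 under the GC correction (adjusted p = 0.0147), and was not called without DMSO replicate 2 (-1.80, adjusted p = 0.0523). PDIA3 stayed between 1192 and 1301 CPM in all 6 H1792 samples, with a log2 fold change of 0.03 ± 0.05 (adjusted p = 0.699) that became -0.34 with the GC correction (adjusted p = 0.0120). TXNDC5 was at 3.88, 46.1 and 0 CPM with RG7112 and at 1.41, 1.39 and 5.23 CPM with DMSO, so that 1 library set its fitted value of 2.80 ± 1.63 (adjusted p = 0.225), which was -0.37 without it.

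Of the ERAD genes, SEL1L and HERPUD1 rose and OS9 fell. SEL1L is the adaptor that joins HRD1 to its substrates (chr14:81471549-81533861, minus strand). It was at 1.76, 1.15 and 2.18 CPM with DMSO, from 5 counts in each library, and at 7.75, 16.0 and 12.8 CPM with RG7112. The treated samples all lay above the controls, and the log2 fold change of 2.95 ± 0.44 (adjusted p = 0.00507) was 2.39 with the GC correction (adjusted p = 0.00952). HERPUD1 (chr16:56932048-56944863, plus strand) was at 294, 249 and 245 CPM with DMSO and at 391, 352 and 373 CPM with RG7112, again without overlap. It rose by 0.58 ± 0.10 (adjusted p = 0.00714). OS9 (chr12:57693955-57721557, plus strand) was at 857, 1018 and 902 CPM with DMSO and at 614, 589 and 636 CPM with RG7112, a fall of 0.52 ± 0.07 on the log2 scale (adjusted p = 0.00439). Its fall was 0.29 with the GC correction (adjusted p = 0.0265). SYVN1, which encodes HRD1 itself, was at 0.09 ± 0.54 (adjusted p = 0.916), and the derlins DERL1 and DERL2, proteins of the retrotranslocation channel, were at 0.23 ± 0.13 and -0.17 ± 0.13 (adjusted p = 0.209 and 0.323). DERL2 was called lower with the GC correction (-0.72, adjusted p = 0.0189).

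Among sensors and regulators, XBP1 rose slightly (chr22:28794555-28800597, minus strand). It was at 395, 373 and 381 CPM with DMSO and at 505, 481 and 454 CPM with RG7112, a log2 fold change of 0.40 ± 0.07 (adjusted p = 0.00800) and 0.37 with the GC correction (adjusted p = 0.0120). The PERK gene EIF2AK3 was at 7.40, 8.08 and 3.49 CPM with DMSO and at 6.72, 10.7 and 8.38 CPM with RG7112. These groups overlapped, and its log2 fold change was 0.50 ± 0.38 (adjusted p = 0.334). WFS1, which encodes the ER membrane protein wolframin, was at 129, 118 and 108 CPM with DMSO and at 87.3, 94.1 and 87.3 CPM with RG7112. It was called lower at -0.33 ± 0.10 (adjusted p = 0.0419), turned to 0.18 with the GC correction (adjusted p = 0.343) and was not called when any 1 of the 6 libraries was left out (-0.38 to -0.26).

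For translocation and export, SSR1, a subunit of the translocon-associated protein complex, was at 36.3, 28.2 and 28.8 CPM with DMSO and at 50.9, 55.5 and 52.4 CPM with RG7112. It rose by 0.84 ± 0.16 (adjusted p = 0.00917), and stood at 0.33 with the GC correction (adjusted p = 0.133). SEC24D, a COPII coat subunit that selects cargo (chr4:118722823-118838683, minus strand), was at 30.0, 25.9 and 10.9 CPM with DMSO and at 49.9, 54.3 and 59.4 CPM with RG7112. Its rise of 1.36 ± 0.33 (adjusted p = 0.0227) was not called with the GC correction (1.06, adjusted p = 0.0523), the replicate block (1.44, adjusted p = 0.0596) or one fit of all 12 samples (1.28, adjusted p = 0.110), or without DMSO replicate 2 (1.44) or RG7112 replicate 2 (1.36) or 3 (1.29). SERP1 was at -0.23 ± 0.10 (adjusted p = 0.120), and was called lower with the GC correction (-0.63, adjusted p = 0.0154).

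**Figure D2:**
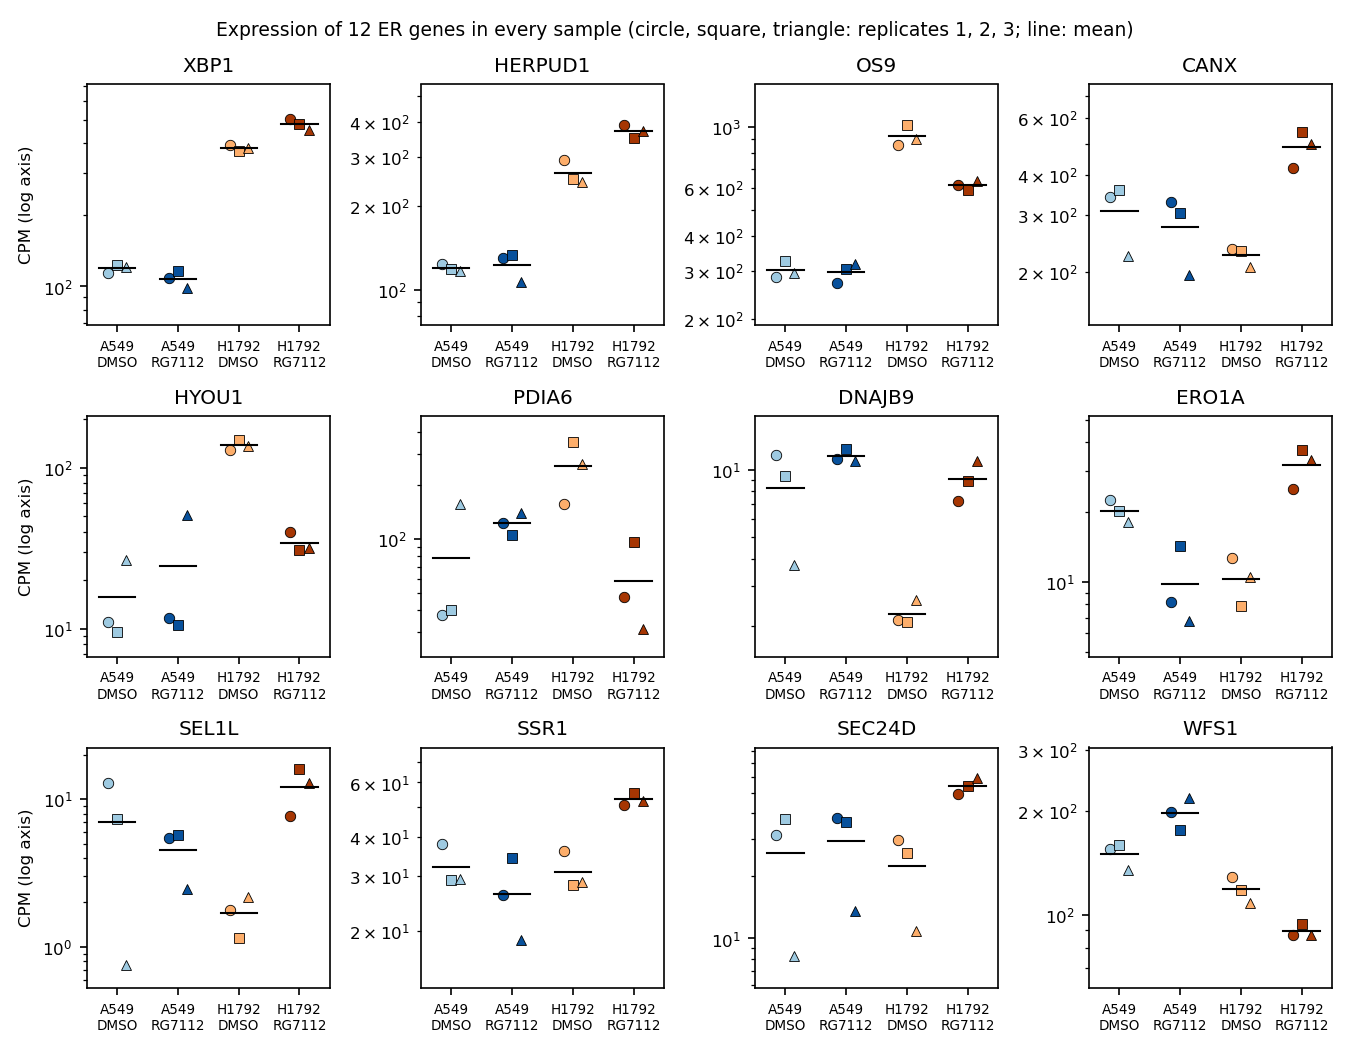
CPM on a log axis for 12 members in every sample, by cell line and treatment, with circles, squares and triangles for replicates 1, 2 and 3 and a line for the group mean. In H1792 the RG7112 samples of SEL1L (7.75 to 16.0 CPM) lie above and those of HYOU1 (31.0 to 39.8 CPM) below all DMSO samples, while in A549 replicate 3 stands apart for HYOU1, SEL1L and SEC24D.

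In A549, none of the 24 tested members passed an adjusted p of 0.05, against 8.38% of all genes tested. 4 passed an unadjusted p of 0.05, against 23.9% of all genes, and DESeq2 called 1 of them, ERO1A. With the GC correction none was called, against 11.1% of all genes. The treated and control samples did not overlap for 4 members, against 32.4% of all genes. The median log2 fold change was -0.08 over the members and -0.01 over all genes. ERO1A was at 22.5, 20.3 and 18.2 CPM with DMSO and at 8.21, 14.3 and 6.79 CPM with RG7112. Its groups did not overlap, and its log2 fold change was -1.08 ± 0.33 (adjusted p = 0.0959, edgeR, and 0.0478, DESeq2). MANF (-0.87 ± 0.30, adjusted p = 0.130), TXNDC5 (-2.79 ± 1.17, adjusted p = 0.203) and WFS1 (0.40 ± 0.14, adjusted p = 0.139) were the other 3. With the replicate number as a block TXNDC5 was called lower (-3.08, adjusted p = 0.0428, and 0.0373 with the GC correction added). Its levels were 21.2, 18.9 and 1.74 CPM with DMSO and 4.03, 1.43 and 0 CPM with RG7112, and these groups overlapped. The TXNDC5 locus overlaps BLOC1S5-TXNDC5 on the same strand, and how reads were divided between them was not tested. Over all 12 samples in one fit ERO1A was called lower and WFS1 higher in A549 (adjusted p = 0.0346 and 0.0448).

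The A549 values of 4 genes that rose in H1792, and of the PERK gene, were as follows. DNAJB9 was at 11.6, 9.39 and 3.74 CPM with DMSO and at 11.2, 12.4 and 10.9 CPM with RG7112 (0.48 ± 0.43, adjusted p = 0.564). CANX was at 342, 358 and 225 CPM with DMSO and at 329, 304 and 196 CPM with RG7112 (-0.16 ± 0.25, adjusted p = 0.760). XBP1 was at 114, 123 and 121 CPM with DMSO and at 108, 116 and 98.1 CPM with RG7112 (-0.15 ± 0.13, adjusted p = 0.561). The groups of all 3 genes overlapped. HERPUD1 was at 124, 119 and 116 CPM with DMSO and at 130, 133 and 106 CPM with RG7112 (0.04 ± 0.14, adjusted p = 0.895), and EIF2AK3 at 9.37, 8.36 and 4.73 CPM and at 11.5, 11.9 and 5.70 CPM (0.37 ± 0.42, adjusted p = 0.655).

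Replicate 3 of A549 stood apart under both treatments for several members. HYOU1 was at 26.7 CPM in DMSO replicate 3 against 10.9 and 9.56 CPM in the others, and at 51.1 CPM in RG7112 replicate 3 against 11.6 and 10.5 CPM. SEL1L went the other way, with 0.747 CPM in DMSO replicate 3 against 12.8 and 7.34 CPM, and 2.45 CPM in RG7112 replicate 3 against 5.42 and 5.72 CPM. SEC24D was at 8.22 and 13.6 CPM in the replicates 3 and between 31.6 and 38.1 CPM in the other 4 libraries. PDIA6 was at 37.5, 39.8 and 158 CPM with DMSO and at 123, 106 and 141 CPM with RG7112, with a fold change of 0.66 ± 0.55 (adjusted p = 0.540). Without DMSO replicate 3 it was called higher at 1.68 (adjusted p = 0.00998), the only member called in A549 then. Without replicate 3 of both treatments, an alternative added after the data were seen, PDIA6 was higher at 1.58 (adjusted p = 0.00600) and TXNDC5 lower at -2.69 (adjusted p = 0.0300).

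**Figure D3:**
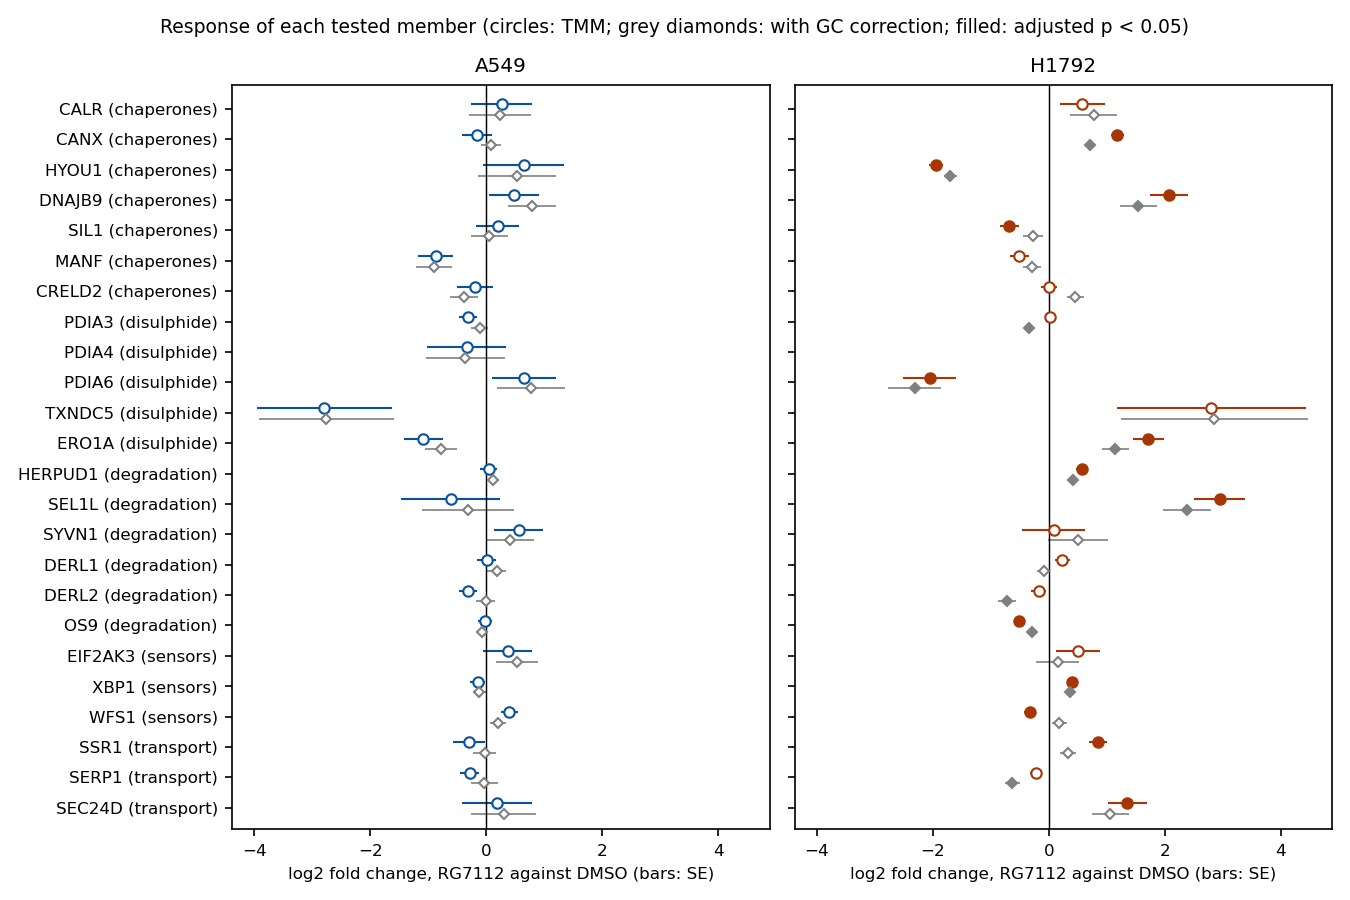
Log2 fold change of RG7112 against DMSO for each tested member in A549 and H1792, with circles for TMM scaling, grey diamonds for the GC correction, bars for SE and filled symbols for an adjusted p under 0.05. In H1792 the filled circles run from PDIA6 at -2.05 to SEL1L at 2.95, and in A549 no symbol is filled.

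Whether the 2 lines responded differently was tested as an interaction over all 12 samples. 9 of the 25 tested members differed (36.0%), against 21.8% of all genes tested. The response in A549 was above that in H1792 for 4 (10.4% of all genes) and below it for 5 (11.4%). ERO1A had the smallest p, since its value was -1.08 in A549 and 1.72 in H1792, with a difference of -2.73 ± 0.42 (adjusted p = 0.00203). It was the only one of the 9 to keep its call in every alternative run, with a difference of -1.84 under the GC correction (adjusted p = 0.00658). PDIA6 and HYOU1 differed by 2.79 ± 0.80 and 2.67 ± 0.78 (adjusted p = 0.0314 and 0.0342), and both were called with the GC correction as well (3.20 and 2.39). Leaving out single libraries ended the call of PDIA6 in 7 of 12 cases and that of HYOU1 in 9 of 12. The GC correction left 4 of 25 called, against 15.5% of all genes, 3 above and 1 below, against 8.33% and 7.19%, with DERL2 as the third above. With library size alone, where the median of all genes was -0.37 in place of 0.02, 2 were above and 8 below.

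The chaperones and the ERAD genes were compared as groups by counts and medians only. In H1792 the 11 tested folding genes divided into 3 higher, 3 lower and 5 not called, with a median log2 fold change of 0.03. The 6 tested ERAD genes divided into 2 higher, 1 lower and 3 not called, with a median of 0.16. DNAJB9 among the higher folding genes and SEL1L among the higher ERAD genes passed the count filter only through their RG7112 samples. The share called was 54.5% for the folding genes and 3 of 6 for the ERAD genes, against 34.1% of all tested genes, whose median was 0.01. The median of the folding genes minus that of the ERAD genes was -0.13, and 0.30 with the GC correction, so that its sign depended on that choice. In A549, where no gene of either group was called, it was -0.17. Within each sample, the mean log2(CPM + 1) of 12 folding genes minus that of the 7 ERAD genes was -0.20, -0.15 and -0.28 in H1792 with DMSO and -0.82, -0.36 and -1.24 with RG7112. The treated samples were the lower ones, and the ERAD mean includes EDEM1 and SEL1L, which were near 0 in the DMSO samples. In A549 the same quantity was -0.43, -0.88 and -0.16 with DMSO and -0.76, -0.89 and -0.46 with RG7112, and the groups overlapped.

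The response in H1792 moved with the GC content of the transcripts. Across the 9165 tested genes with a GC value, Spearman's rho between GC content and log2 fold change was -0.50 in H1792 and, across 9941 genes, 0.26 in A549, a description over genes of the same libraries. In the tenth of genes with the lowest GC content (median 37.7%) the median log2 fold change in H1792 was 0.66, and in the tenth with the highest (median 64.5%) it was -0.51. Among the members that rose, SEL1L, ERO1A, DNAJB9, SSR1 and CANX have GC contents between 38.7% and 41.6%, while SEC24D has 45.5%, HERPUD1 47.9% and XBP1 50.1%. Of those that were lower, OS9 has 54.7%, HYOU1 55.2%, SIL1 58.5% and WFS1 61.4%. PDIA6 also fell, with a GC content of 46.5%, below the 49.4% that is the median of all tested genes. GC content was tested as a correction only, and its part in the response of single genes was not tested further.

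**Figure D4:**
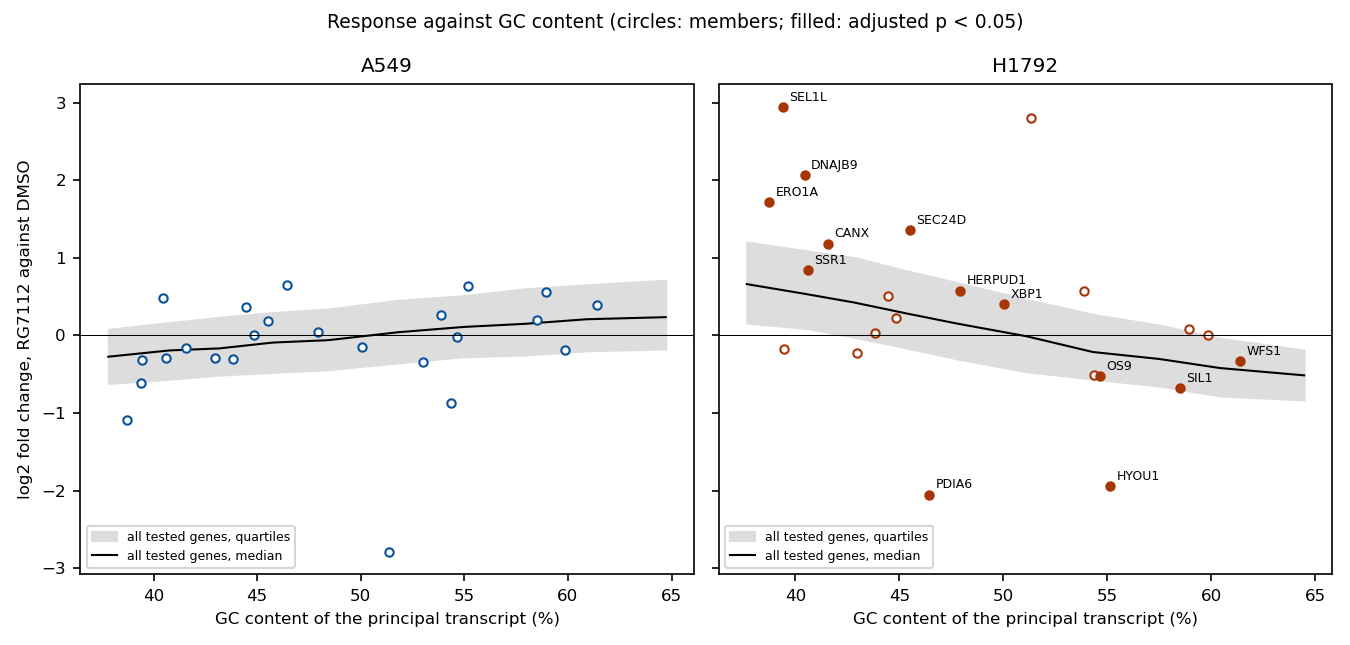
Log2 fold change of RG7112 against DMSO plotted against the GC content of the principal transcript for the tested members, with filled circles for an adjusted p under 0.05, a line for the median of all tested genes in bins of GC content and a grey band for their quartiles. In H1792 the median falls from 0.66 to -0.51 across the bins, with SEL1L at 2.95 above the band and PDIA6 at -2.05 and HYOU1 at -1.94 below it.

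The other genes of the pathway, 97 listed by role and 94 of them in the table, gave the surroundings of the members. In H1792, 18 of the 78 tested were higher and 14 were lower, together 41.0% against the 34.1% of all genes. The 3 of smallest p were SEC23A, PRKCSH and CALU. SEC23A, another COPII coat subunit, rose by 1.69 ± 0.13 (adjusted p = 0.00272). PRKCSH, a subunit of glucosidase II, the enzyme that trims glycans for calnexin, fell by 0.71 ± 0.06 (adjusted p = 0.00272). CALU, a calcium-binding protein of the secretory pathway, rose by 1.71 ± 0.18 (adjusted p = 0.00300). Of the 12 tested folding genes of that list 4 were higher and none was lower, with 7 at an unadjusted p under 0.05 (46.0% of all genes), and of its 13 tested ERAD genes 3 were higher and 4 lower. In A549, 2 of 78 were called (2.56%, against 8.38% of all genes), and both were higher. These were BBC3, a p53 target that promotes apoptosis, at 1.76 ± 0.18 (adjusted p = 0.00221) and SEC31A, a COPII coat subunit, at 1.02 ± 0.24 (adjusted p = 0.0485). The next was SRPRB, a subunit of the signal recognition particle receptor, at -0.90 ± 0.24 (adjusted p = 0.0631). At least 1 of the promoter elements was in 10 of the 110 windows of these genes (9.09%). UPRE was in 9 of the 110 (8.18%), a larger share than the 5.26% of the members, and ERSE was in 1 (0.909%).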

How the data were processed

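RNA of A549 and H1792 cells was measured after 48 h in DMSO or 1 μM RG7112, from poly-A libraries read from both ends. In the column names RG7112 stands at 0.1 μM, but the labels' dose was used here. The authors quantified reads with kallisto 0.45.0 on GRCh38 and summed transcripts to genes, and deposited estimated counts per gene as whole numbers, without normalization. Each column was assigned to its sample through the line, treatment and replicate number in its name, 3 per group. Members and gene lists were chosen with earlier results of these data known. The expression of HSPA5 was not analysed here, while its promoter was searched.

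Counts were tested with edgeR 4.0.16 in R 4.3.3 (quasi-likelihood, robust, TMM, filterByExpr with a minimum count of 10 and total of 15), within each line for the response and over 12 samples for the interaction and the baseline, with Benjamini-Hochberg adjustment over all genes. Calls had an adjusted p under 0.05, and DEGs also an absolute log2 fold change over 1. CPM values carry TMM factors. Gene positions, principal transcript length and GC content came from GENCODE 29, which held 17982 of 20595 identifiers. The GC correction was a loess (span 0.5) per sample, entered as an offset. Values per sample were given for DEGs and for a fixed set of regulators, statistics for every called member, and for other pathway genes the 3 of smallest p per line. On simulated data with 200 changed genes the procedure recovered 200 in each line, 194 for the interaction and 200 for the baseline. False calls were 9 in A549, 8 in H1792, 6 for the interaction and 10 for the baseline. The changed genes were well counted and all changed by the same large fold, with a spread set below that of these data. The simulation therefore checks that the procedure runs correctly and does not measure its power for the members. The alternatives were DESeq2 1.42.0, limma-trend 3.58.1 (prior count 2), RLE or library size scaling, no count filter, the replicate number as a block, the GC correction, genes with a GC value only, one fit for all or for the DMSO samples, other thresholds and leaving out samples.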

Additional observations from a re-analysis of the deposited data

Results flagged for a closer look

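9 members responded differently to RG7112 in A549 and H1792 by the interaction test of edgeR over all 12 samples. A positive difference means a higher response in A549. ERO1A differed by -2.73 ± 0.42 (SE; adjusted p = 0.00203), with -1.08 in A549 and 1.72 in H1792. WFS1 differed by 0.80 ± 0.17 (adjusted p = 0.00820), with 0.40 and -0.33, and was not called with the GC correction (0.22, adjusted p = 0.437) or with library size alone (0.39, adjusted p = 0.139). CANX differed by -1.27 ± 0.30 (adjusted p = 0.0144), with -0.16 and 1.18, and OS9 by 0.58 ± 0.14 (adjusted p = 0.0163), with -0.02 and -0.52. XBP1 differed by -0.48 ± 0.13 (adjusted p = 0.0229), and SSR1 by -1.06 ± 0.31 (adjusted p = 0.0351). With the GC correction CANX (-0.53, adjusted p = 0.108), OS9 (0.38, adjusted p = 0.0578), XBP1 (-0.35, adjusted p = 0.0740) and SSR1 (-0.27, adjusted p = 0.462) were not called. The call of OS9 was also lost with library size alone (0.17, adjusted p = 0.373) and with no count filter (0.49, adjusted p = 0.0535). Leaving out single libraries ended the call of SSR1 in 7 of 12 cases, those of OS9 and XBP1 in 2 each and those of ERO1A, WFS1 and CANX in none.

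PDIA6 differed by 2.79 ± 0.80 (adjusted p = 0.0314), HYOU1 by 2.67 ± 0.78 (adjusted p = 0.0342) and SEL1L by -3.48 ± 1.07 (adjusted p = 0.0406). Leaving out single libraries ended these calls in 7, 9 and 10 of 12 cases, with values of 2.43 to 3.81, 1.53 to 3.28 and -4.02 to -2.81. The call of SEL1L was also lost with the GC correction (-2.60, adjusted p = 0.0969), the replicate block (-3.41, adjusted p = 0.0581) and limma-trend (-2.59, adjusted p = 0.0931), and those of PDIA6 and HYOU1 with no count filter (adjusted p = 0.0534 and 0.0544). Replicate 3 of A549 stood apart for HYOU1 and SEL1L under both treatments and for PDIA6 with DMSO. Without replicate 3 of both A549 treatments, chosen after seeing the data, the differences were 3.70, 2.15 and -3.72 (adjusted p = 0.00494, 0.000520 and 0.00399). Groups of 3 samples were too small for a test of single outlying samples.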

How the results depend on the processing

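At an adjusted p under 0.05, the calls in H1792 that held under every alternative of fit and samples run were CANX, HERPUD1 and SEL1L (higher) and HYOU1 (lower), and PDIA6 was lost only without H1792 DMSO replicate 2. SEL1L passed the count filter only through its RG7112 samples in the filtered fits of H1792 alone, so its direction was hardly open there. For A549, where none was called, DESeq2 gave 0 higher and 1 lower, one fit of all 12 samples 1 and 1, and leaving out samples 0 to 1 higher and 0 to 1 lower. For H1792, with 8 higher and 5 lower, library size alone gave 3 lower, a fold threshold 5 and 2, an adjusted p under 0.01 gave 2 lower, and leaving out samples 7 to 9 higher and 2 to 5 lower. For the interaction, with 4 above and 5 below, library size alone gave 2 and 8, no count filter 1 above, the GC correction 1 below, a fold threshold 2 above, an adjusted p under 0.01 gave 1 and 1, and leaving out samples 1 to 4 above and 2 to 7 below. For the baseline, with 4 higher and 8 lower in A549, a fold threshold or an adjusted p under 0.01 gave 1 higher, and leaving out samples 1 to 8 higher and 7 to 8 lower. The folding minus ERAD median of H1792 went from -0.13 to 0.30 with the GC correction and 0.29 with the block added. The cause was not tested.

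Under at least 1 alternative of fit or samples the sign turned for 10 of 24 members in A549, 8 of 23 in H1792, 8 of 25 in the interaction and 7 of 25 at baseline, and among called members only for WFS1 in H1792 (0.18 with the GC correction, 0.19 with the block added). Of the members described above, these included in A549 CANX (0.080 with the GC correction, 0.099 with the block added, -0.34 to 0.043 leaving out samples), HERPUD1 (-0.018 with library size alone) and SEL1L (0.036 with the GC correction and block). Leaving out samples gave HYOU1 -0.49 to 1.26, SIL1 -0.089 to 0.45, HERPUD1 -0.012 to 0.14, SEL1L -1.14 to 0.12, OS9 -0.067 to 0.044 (single samples) and SEC24D -0.24 to 0.56 there, and TXNDC5 -0.37 to 3.65 in H1792. In H1792, PDIA3 became -0.34 with the GC correction, with or without the block, and -0.045 in one fit of all samples, and with library size alone DERL2 became 0.084 and SERP1 0.032. The interaction value of DERL2 became 0.80 with the GC correction, 0.79 with the block added, and 0.031 without replicate 3 of both A549 treatments. The GC correction also turned PDIA3 to 0.31, DERL1 to 0.36 and EIF2AK3 to 0.47 in the interaction, and DERL1 to -0.087 in H1792. 8 called baseline members lower in A549 held with the GC correction and with the block.

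Same-numbered samples had correlations of deviations of 0.163, 0.0749 and 0.317 in A549. The highest with another number were 0.161, 0.12 and -0.184. In H1792 same-numbered samples stood at -0.0507, -0.0273 and -0.00151, against 0.0338, 0.0537 and 0.000946. So no shift shared by replicate number was seen in H1792, while replicate 3 of A549 went with its own number. With so few samples these values cannot show whether the samples were handled as pairs. The main fits had no block, so a shift shared by both replicates 3 of A549 counted as spread between samples. With the number as a block, 1 member (TXNDC5) was lower in A549, 7 were higher and 3 lower in H1792, 4 above and 4 below in the interaction, and 3 higher and 8 lower at baseline. With block and GC correction together, 1 was lower in A549, 3 were higher and 2 lower in H1792, and 2 were above and 1 below in the interaction.

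8 members lay at or under 14 counts in every library and did not pass the count filter, and the cause of their low counts was not tested. Duplicate reads cannot be recognised in these counts, and intervals cover the spread between samples only.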
